A study of Homo sapiens with 10 samples.

Results

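Expression of 10 genes of Wnt signalling was followed by RNA sequencing of human glioma cells in which the homeobox transcription factor MEOX2 was lowered or raised. The genes are the ligands WNT5A, WNT5B and WNT7B, the receptor FZD7, the secreted antagonists DKK1, DKK3 and SFRP1, the feedback gene AXIN2, and the nuclear factors LEF1 and TCF7. They were taken by symbol from a table of 34567 genes, and all 10 were present. The study asked which genes respond to MEOX2 in glioma cells. SNB19 cells, a glioma line, were transiently transfected with a Scramble siRNA (control, n = 3) or with siMEOX2 (MEOX2 knockdown, n = 3). U87 cells, another glioma line, were made stable with an empty vector (EV) lentivirus (control, n = 2) or with a lentivirus carrying Flag-tagged MEOX2 (MEOX2 overexpression, n = 2), and transduced cells were selected with puromycin. All groups were grown in DMEM with serum. Which MEOX2 siRNA was used and the time from transfection to RNA isolation are not given in the sources used here. Nothing in the labels says that replicates came from separate cultures, so p-values measure only the spread between these samples, which may be technical.

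Wnt ligands are secreted proteins that bind Frizzled receptors at the cell surface. In the canonical branch the signal stabilises beta-catenin, which enters the nucleus and activates target genes together with TCF/LEF factors, whereas WNT5A and WNT5B are best known for branches that act on cell movement without beta-catenin. The pathway is held in check outside the cell by DKK and SFRP proteins and inside the cell by AXIN2, a scaffold of the complex that destroys beta-catenin and itself a classic beta-catenin target. In glioma, Wnt signalling has been linked to stem-like growth and invasion.

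Promoter sequences of 5 of the 10 genes (WNT5A, WNT5B, DKK1, LEF1 and TCF7) were present in the RefSeq promoter table (build GRCh38.p14), as 8 windows of 250 bases upstream of a transcription start. The windows of DKK1 and WNT5B are shown because they were the gene of the 10 that rose and the gene that fell most with MEOX2 overexpression. Capitals mark the TCF/LEF core, CTTTGA, or TCAAAG when read on the other strand. Both windows lie on the plus strand, DKK1 at chr10:52314031-52314280 and the first of 2 starts of WNT5B at chr12:1616806-1617055.
DKK1: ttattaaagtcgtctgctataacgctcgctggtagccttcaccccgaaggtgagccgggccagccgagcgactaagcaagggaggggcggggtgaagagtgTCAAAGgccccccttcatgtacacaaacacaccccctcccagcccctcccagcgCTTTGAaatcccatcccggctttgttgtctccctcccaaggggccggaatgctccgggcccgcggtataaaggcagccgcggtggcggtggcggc
WNT5B: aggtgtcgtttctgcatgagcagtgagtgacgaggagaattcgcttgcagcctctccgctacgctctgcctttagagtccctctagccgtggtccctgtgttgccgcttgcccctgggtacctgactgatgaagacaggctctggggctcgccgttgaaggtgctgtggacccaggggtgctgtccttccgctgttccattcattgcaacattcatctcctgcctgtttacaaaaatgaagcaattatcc
The DKK1 window holds 2 TCF/LEF cores, which begin 149 and 95 bases before the start and do not overlap. Neither WNT5B window holds one, nor do those of WNT5A, LEF1 and TCF7. Of 35116 promoter windows of the same length, 11.2% hold this core. The letters TAATTA, a pair of homeodomain cores that reads the same on both strands, are in 1 of the 8 windows, the first of WNT5A, against 4.35% of all windows. Such matches describe letters, not binding.

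The 10 libraries held 12533775 to 16560324 counts on genes, and 17312 genes passed the filter on low counts, all 10 Wnt genes among them. DKK1 and LEF1 reached 10 counts only in the 4 U87 libraries, and DKK3 and SFRP1 only in the 6 SNB19 libraries, so these 4 passed through the line where they are high. MEOX2 itself followed the labels. Its counts were 249, 224 and 275 with Scramble siRNA and 54, 40 and 49 with siMEOX2, a log2 fold change of -2.42 (SE 0.143, edgeR adjusted p = 9.1e-05). It was listed at 0 in both EV libraries and reached 4999 and 5308 counts with MEOX2 overexpression, at least 3255-fold higher against a floor of 3 counts over the EV group.

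EV replicate 1 stood apart. Across genes its log2 expression correlated with EV replicate 2 at r = 0.946, while every other pair of replicates reached at least 0.994. Genes with at most 2717 exonic bases took 30.7% of its counts, against 17.0% in EV replicate 2 and at most 19.2% in any library but EV replicate 1. The factor by which the test scales libraries (TMM, a trimmed mean of gene ratios) was 0.695 for it and 0.95 to 1.13 for the others. The part of this in the results was not tested, and the overexpression values of the Wnt genes, SFRP1 excepted, are given with and without each EV library. A fit without 1 U87 library leaves 1 library in its group, which is then assumed to vary like the other groups. More of all genes were called when an EV library was left out, so passing there is no check of a call. Of 10 glioma and astrocyte markers, 7 were above 1 FPKM (counts scaled to library total and gene length) in the SNB19 control cells and 6 in the U87 control cells. VIM was at 160.2 FPKM or more in every control library, GFAP did not exceed 0.397 FPKM and AQP4 was listed at 0 in every control library. SOX2 was at 12.4 to 14.4 FPKM in SNB19 control cells and at 0.0283 FPKM or less in U87 control cells. The summed glioma and astrocyte markers ran from 249.1 to 250.9 FPKM with Scramble siRNA, from 127.3 to 131.1 with siMEOX2, from 335.4 to 756 with EV and from 198.3 to 200.9 with MEOX2 overexpression. VIM made up most of this sum, with 687.2 FPKM in EV replicate 1. OLIG2 went the other way, from 1.13 to 1.17 FPKM with Scramble siRNA and 1.52 to 2.01 with siMEOX2. In U87 OLIG2 was at 1.40 to 1.61 FPKM with EV and 5.93 to 6.50 with MEOX2 overexpression. SOX2 was also higher with overexpression there, while CD44, SOX9 and SLC1A3 overlapped. The immune sum was lower with siMEOX2 (0.973 to 1.44 FPKM) than with Scramble siRNA (3.65 to 4.09), and lower with MEOX2 overexpression (0.517 to 0.649) than with EV (2.42 to 3.30). Its defining gene PTPRC did not exceed 0.0278 FPKM in any library, and CSF1R made up most of the sum, at 3.48 to 4.06 FPKM with Scramble siRNA, 0.973 to 1.43 with siMEOX2, 2.42 to 3.23 with EV and 0.480 to 0.557 with MEOX2 overexpression. The endothelial sum ran from 5.43 to 6.11 FPKM with Scramble siRNA and from 1.51 to 1.62 with siMEOX2, led by PECAM1, while KDR overlapped between these groups (0.322 to 0.552 and 0.446 to 0.689). In U87 it was 1.01 to 1.73 with EV and 1.41 to 1.42 with MEOX2 overexpression. The epithelial sum ran from 49.1 to 53.1 FPKM with Scramble siRNA and from 27.4 to 31.1 with siMEOX2, led by KRT8, whereas CDH1 was the higher with siMEOX2 (0.691 to 0.735 against 0.142 to 0.235). In U87 the epithelial sum was 1.66 to 2.21 with EV and 0.913 to 1.10 with MEOX2 overexpression. The part of these markers in the results was not tested.

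MEOX2 knockdown in SNB19 cells lowered DKK3, SFRP1, AXIN2 and TCF7. These 4 of 10 genes fell to between 0.36 and 0.50 of the control level. They passed an adjusted p under 0.05 in edgeR's quasi-likelihood test across all genes, in which 8.75% of genes were lower and 6.99% higher. The 10 genes were chosen with earlier results of these data known, so counts over them are a description. In a fit of the SNB19 libraries alone, edgeR called 6 of the 8 Wnt genes tested, beside 55.9% of all genes. DESeq2 also called 6 of the 8 there, beside 50.8% of all genes. MEOX2 overexpression in U87 cells raised DKK1 and lowered WNT5B and WNT7B, 3 of 10 genes, where 11.3% of all genes were higher and 14.9% lower (26.2% in all). With only the 4 U87 libraries in the fit, edgeR called 0 of 14180 genes (2643 at an unadjusted p under 0.05, these 3 among them), while DESeq2 called 991, DKK1 and WNT5B among them. Between the control cells 56.9% of all genes were called, 28.1% higher in SNB19 and 28.8% higher in U87. FZD7 and AXIN2 were called higher in SNB19, and WNT5A, WNT5B, WNT7B and TCF7 higher in U87. DKK3 and SFRP1 (higher in SNB19) and DKK1 and LEF1 (higher in U87) entered the test only through the line where they are high, so their differences are given as a description and nothing is read from a count over the 10 genes. Without EV replicate 1 and without EV replicate 2, the log2 fold change of SNB19 against U87 was 1.05 and 2.46 for FZD7, 2.46 and 3.90 for AXIN2, -3.69 and -2.64 for WNT5A, -1.02 and -1.63 for WNT5B and -2.16 and -1.73 for TCF7. The knockdown comparison shares its Scramble siRNA libraries with the comparison of the lines, and the overexpression comparison shares its EV libraries with it. Fewer cells expressing a gene and less RNA per cell cannot be told apart in such bulk samples.

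**Figure D1:**
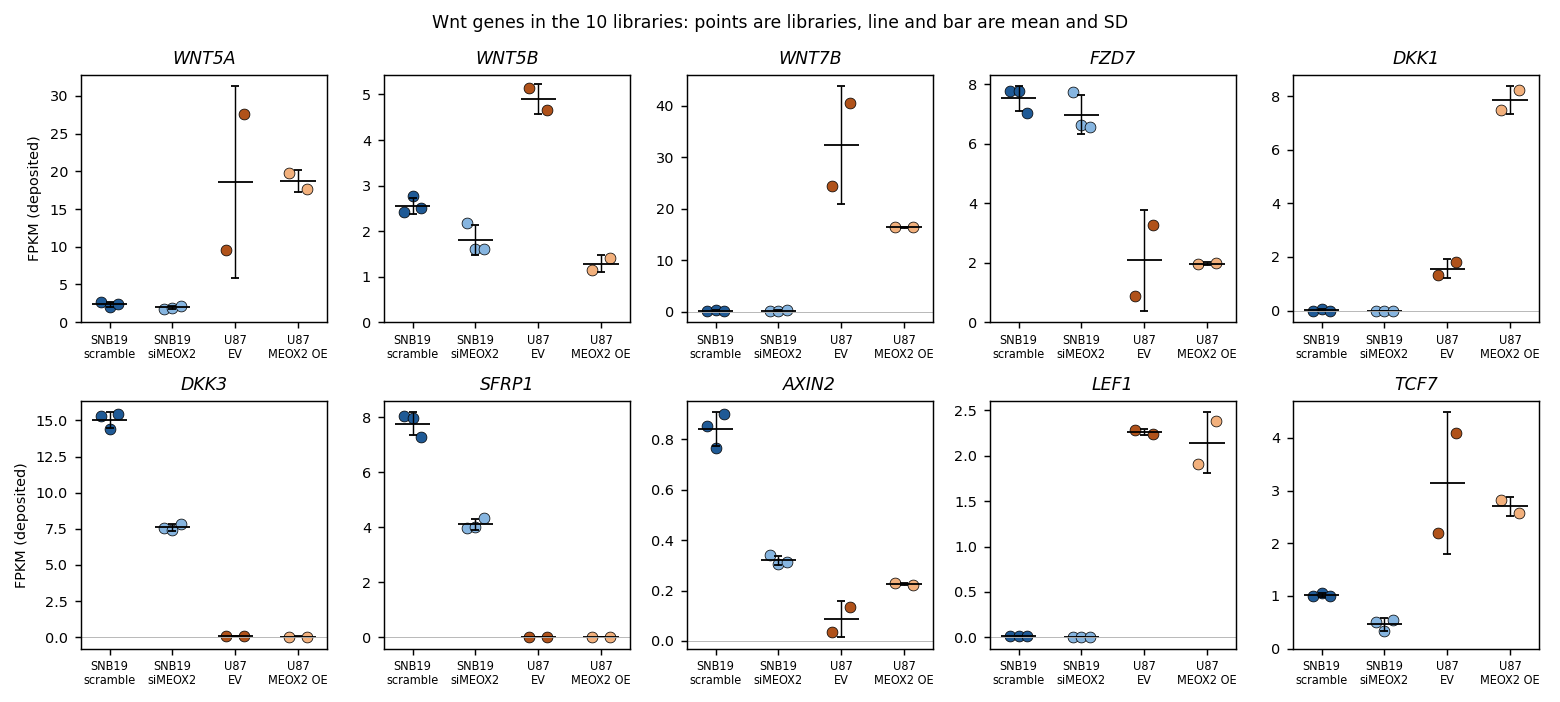
FPKM of each Wnt gene (y axis, linear, a scale of its own in each panel) in the 4 groups (x axis), where points are libraries, the horizontal line is the group mean and the bar is the SD. DKK3, SFRP1, AXIN2 and TCF7 lie lower in all 3 siMEOX2 libraries than in all 3 Scramble siRNA libraries, and DKK1 lies higher in both MEOX2 overexpression libraries than in both EV libraries. The EV points lie far apart for WNT5A, WNT7B, FZD7 and TCF7, and AXIN2 was at 0.0355 and 0.136 FPKM with EV.

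Across the 10 genes, excluding DKK1 and LEF1, which had at most 3 counts in both SNB19 groups, the median log2 fold change with knockdown was -0.80, beside -0.0013 over all genes tested. With overexpression it was -0.33 over 9 genes, SFRP1 being left out for the same reason, beside -0.02 over all genes. Both medians are a description, since the 10 genes were chosen with earlier results of these data known.

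**Figure D2:**
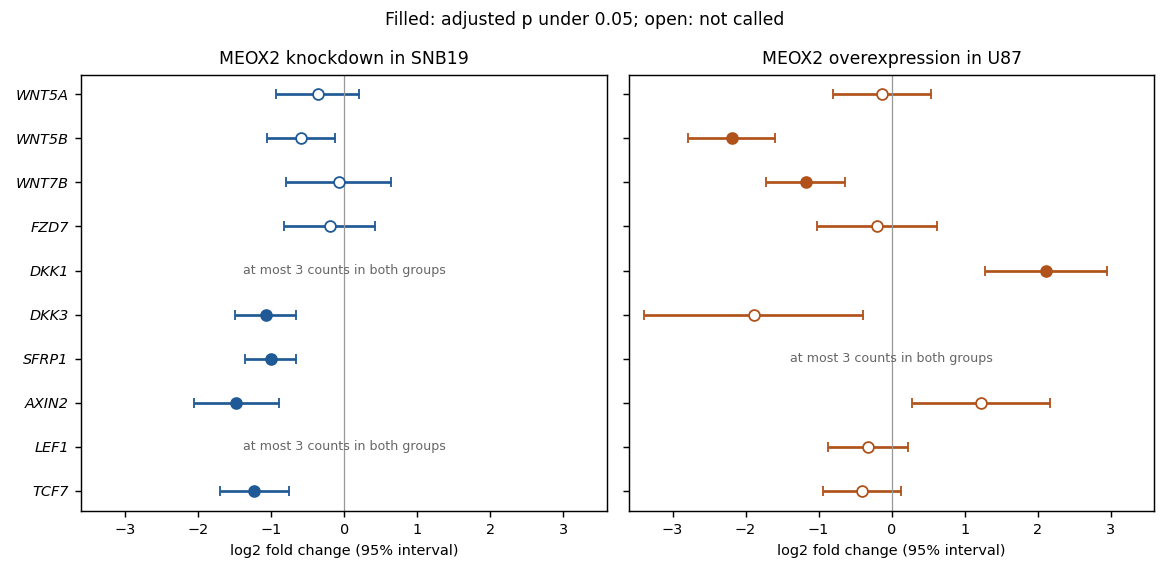
Log2 fold change (x axis) of the 10 Wnt genes with MEOX2 knockdown in SNB19 (left) and with MEOX2 overexpression in U87 (right). Points are estimates of edgeR's model, bars are 95% intervals, filled points passed an adjusted p under 0.05, and genes with at most 3 counts in both groups carry no point. The 4 filled points on the left all lie below 0, and on the right DKK1 lies above 0 and WNT5B and WNT7B below.

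WNT5A (ENSG00000114251, chr3:55465715-55490539 on GRCh38, minus strand) encodes a ligand of the branches that do not use beta-catenin. Its level in SNB19 was 2.70, 1.98 and 2.40 FPKM with Scramble siRNA and 1.78, 1.91 and 2.19 FPKM with siMEOX2. In U87 it was 9.57 and 27.6 FPKM with EV and 19.7 and 17.7 FPKM with MEOX2 overexpression. Each U87 library was above each SNB19 library, while the SNB19 groups overlapped and the overexpression values lay between the EV values. The difference between the control groups was 9.52-fold (log2 fold change -3.25 for SNB19 against U87, SE 0.280, edgeR adjusted p = 1.39e-05). The knockdown log2 fold change was -0.36 (SE 0.253, edgeR adjusted p = 0.388). It was -0.37 without EV replicate 1 and -0.36 without EV replicate 2. The overexpression log2 fold change was -0.13 (95% interval -0.80 to 0.54). It turned with the EV library used, to -0.53 without EV replicate 1 and to 0.54 without EV replicate 2.

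WNT5B (ENSG00000111186, chr12:1529891-1647243, plus strand), the close paralog of WNT5A, had the largest fall of the 10 genes with MEOX2 overexpression. In U87 it was at 5.13 and 4.66 FPKM with EV and at 1.15 and 1.41 FPKM with MEOX2 overexpression. The groups did not overlap, and the level with overexpression was 4.56-fold lower (log2 fold change -2.19, SE 0.264, edgeR adjusted p = 0.00067). Without EV replicate 1 the log2 fold change was -1.82, and without EV replicate 2 it was -2.42. In SNB19 the levels were 2.43, 2.76 and 2.50 FPKM with Scramble siRNA and 2.19, 1.62 and 1.60 FPKM with siMEOX2. All 3 knockdown values were lower, but the log2 fold change of -0.59 (SE 0.209) missed the threshold (edgeR adjusted p = 0.089). The log2 fold change was -0.58 without EV replicate 1 and -0.57 without EV replicate 2. Among the control cells U87 was 2.52-fold above SNB19 (edgeR adjusted p = 0.00090).

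WNT7B (ENSG00000188064, chr22:45920362-45977129, minus strand), a ligand that can signal through beta-catenin, was far higher in U87 than in SNB19. Its level was 24.3 and 40.5 FPKM with EV and 16.3 and 16.5 FPKM with MEOX2 overexpression, against 0.126 to 0.267 FPKM in the 6 SNB19 libraries. MEOX2 overexpression lowered it 2.26-fold (log2 fold change -1.18, SE 0.241, edgeR adjusted p = 0.0083) with no overlap of the groups. The fall was -1.27 without EV replicate 1 and -0.997 without EV replicate 2. It missed the threshold without overexpression replicate 1 and without overexpression replicate 2. In SNB19, where it had 10 to 19 counts in a library, the knockdown log2 fold change was -0.08 (95% interval -0.80 to 0.65). The U87 control cells were 227-fold above the SNB19 control cells (log2 fold change -7.83 for SNB19 against U87, SE 0.286, edgeR adjusted p = 1.71e-07).

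FZD7 (ENSG00000155760, chr2:202034587-202038445, plus strand), a Frizzled receptor, was the higher in SNB19. Its values were 7.78, 7.76 and 7.05 FPKM with Scramble siRNA, 7.74, 6.64 and 6.55 FPKM with siMEOX2, 0.882 and 3.28 FPKM with EV, and 1.94 and 2.00 FPKM with MEOX2 overexpression. The SNB19 groups overlapped each other and lay above both U87 groups. The SNB19 control cells were 3.01-fold above the U87 control cells (edgeR adjusted p = 0.0032). Knockdown changed it by -0.20 on the log2 scale (95% interval -0.82 to 0.43), which did not pass. The overexpression value, -0.20 (95% interval -1.02 to 0.62), again took its sign from the EV library. It was -0.70 without EV replicate 1 and 0.73 without EV replicate 2.

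The 3 antagonists were split between the lines. DKK1 (ENSG00000107984, chr10:52314296-52318042, plus strand) blocks the LRP5 and LRP6 co-receptors. It was at 1.32 and 1.81 FPKM with EV and at 7.49 and 8.24 FPKM with MEOX2 overexpression. Both overexpression values exceeded both EV values, and the rise was 4.33-fold (log2 2.11, SE 0.373, edgeR adjusted p = 0.0074). It was 2.16 without EV replicate 1 and 2.15 without EV replicate 2 on the log2 scale, and the adjusted p was 0.060 without overexpression replicate 2. In SNB19 there were 2 counts over the 3 Scramble siRNA libraries and 0 over the 3 siMEOX2 libraries, so no fold is given there. Between the control cells the ratio was 101 in favour of U87 (95% interval 27.2 to 845, counting error only). An antisense gene, PRKG1-AS1, shares 212 exonic bases with DKK1 and had 0 to 4 counts in a library.

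DKK3 (ENSG00000050165, chr11:11963106-12009769, minus strand), a DKK family member whose effect on Wnt signalling varies with context, had the highest group mean FPKM of the 10 genes in both SNB19 groups, although in siMEOX2 replicate 1 FZD7 was above it. Its level was 15.3, 14.4 and 15.4 FPKM with Scramble siRNA and 7.56, 7.39 and 7.84 FPKM with siMEOX2. The groups did not overlap, and knockdown lowered it 2.10-fold (log2 fold change -1.07, SE 0.186, edgeR adjusted p = 0.0057). With a term for the replicate number the estimate was the same and the adjusted p was 0.058. U87 had 6 and 5 counts with EV and 0 and 3 counts with MEOX2 overexpression, a ratio of 3.87 in favour of EV (95% interval 1.02 to 21.6), and edgeR's adjusted p was 0.069. It was 0.21 without EV replicate 1 and 0.0502 without EV replicate 2, and none of these passed. The SNB19 control cells were above the U87 control cells by a ratio of 162 (95% interval 90.4 to 325).

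SFRP1 (ENSG00000104332, chr8:41261958-41309497, minus strand), a secreted protein that binds Wnt ligands, showed the same order of groups in SNB19. It was at 8.05, 7.98 and 7.28 FPKM with Scramble siRNA and at 3.99, 4.01 and 4.34 FPKM with siMEOX2. Every siMEOX2 value was lower, and the fall was 2.01-fold (log2 fold change -1.01, SE 0.155, edgeR adjusted p = 0.0044). The 4 U87 libraries held 1 count in all, in overexpression replicate 2, so no fold with MEOX2 overexpression is given. The SNB19 control cells were at least 288-fold higher than the U87 control cells, against a floor of 3 counts over the EV group.

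AXIN2 (ENSG00000168646, chr17:65528563-65561647, minus strand), the feedback gene, was low in all groups. Its level was 0.855, 0.767 and 0.900 FPKM with Scramble siRNA and 0.341, 0.306 and 0.312 FPKM with siMEOX2. The groups were well apart, and the fall of 2.78-fold was the largest among the 4 genes that passed (log2 fold change -1.48, SE 0.259, edgeR adjusted p = 0.0061). It passed in all 19 alternative fits, with a log2 fold change from -1.54 to -1.39. In U87 there were 3 and 10 counts with EV and 15 and 17 counts with MEOX2 overexpression, a ratio of 2.33 (95% interval 1.19 to 4.84, counting error only). Both overexpression values were the higher, yet the log2 fold change of 1.23 (SE 0.419) missed the threshold (edgeR adjusted p = 0.058). It was 0.76 without EV replicate 1 and 2.20 without EV replicate 2. The order of the 4 groups, from Scramble siRNA through siMEOX2 and MEOX2 overexpression to EV, held with no overlap between neighbours on the TMM scale used in the test. The SNB19 control cells were 7.89-fold above the U87 control cells (edgeR adjusted p = 0.00012). A protein-coding gene on the same strand, AC004805.1, shares 1316 exonic bases with AXIN2, and how such reads were assigned is not given in the sources used here.

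LEF1 and TCF7 are DNA-binding partners of beta-catenin, and both were higher in U87. LEF1 (ENSG00000138795, chr4:108047545-108168956, minus strand) was at 2.29 and 2.24 FPKM with EV and at 1.90 and 2.38 FPKM with MEOX2 overexpression. The groups overlapped (log2 fold change -0.33, 95% interval -0.88 to 0.22). It was -0.02 without EV replicate 1 and -0.51 without EV replicate 2. In SNB19 it had 1 count in each Scramble siRNA library and 0 in each siMEOX2 library, and the control cells of U87 exceeded those of SNB19 by a ratio of 240 (95% interval 81.4 to 1168). LEF1-AS1, on the opposite strand, shares 279 exonic bases and had 0 to 9 counts.

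TCF7 (ENSG00000081059, chr5:134114711-134151865, plus strand) was at 0.996, 1.06 and 1.01 FPKM with Scramble siRNA and at 0.506, 0.325 and 0.550 FPKM with siMEOX2. All knockdown values were lower, with a fall of 2.35-fold (log2 fold change -1.23, SE 0.209, edgeR adjusted p = 0.0051) that passed in all 19 alternative fits. In U87 it was at 2.19 and 4.10 FPKM with EV and at 2.82 and 2.57 FPKM with MEOX2 overexpression. On the TMM scale both overexpression values were the lower, with a log2 fold change of -0.40 (95% interval -0.93 to 0.13, edgeR adjusted p = 0.22). It was -0.57 without EV replicate 1 and -0.13 without EV replicate 2. The U87 control cells were 3.85-fold above the SNB19 control cells (edgeR adjusted p = 6.88e-05). SKP1, on the opposite strand, shares 210 exonic bases with TCF7 and had 1159 to 4037 counts in a library. The library kit does not mark strand, so reads of the shared bases cannot be told apart.

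**Figure D3:**
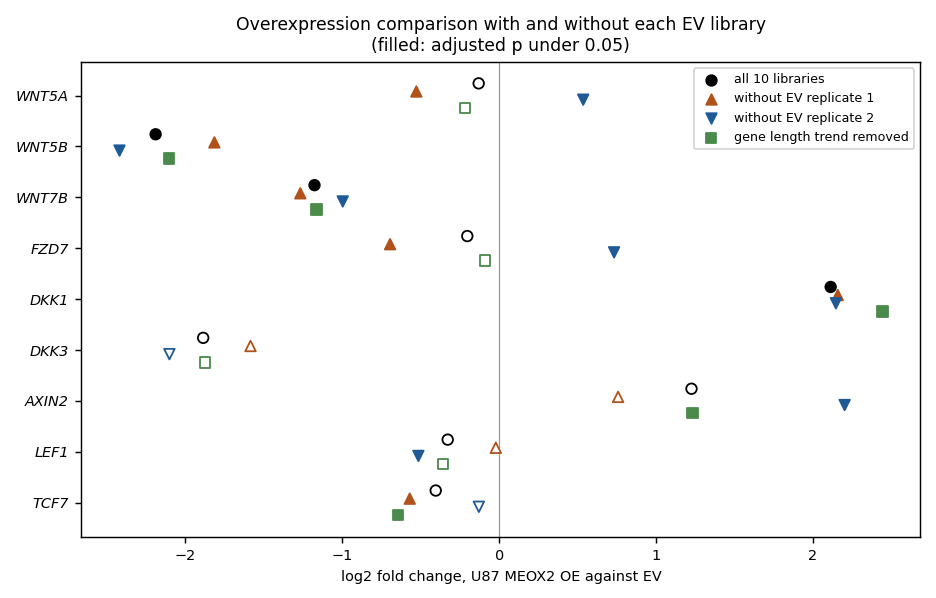
Log2 fold change with MEOX2 overexpression in U87 (x axis) for 9 of the Wnt genes, SFRP1 being left out for its 1 count. Circles use all 10 libraries, triangles leave out EV replicate 1 or 2, squares remove a trend with gene length (chosen after seeing the data), and filled symbols passed an adjusted p under 0.05. WNT5B, WNT7B and DKK1 stay on the same side of 0 in the 4 fits. WNT5A and FZD7 lie on opposite sides when EV replicate 1 and EV replicate 2 are left out in turn. A triangle rests on 1 EV library, so its filling is no check of a call.

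Whether the 2 lines responded alike to more MEOX2 was tested as the difference between the SNB19 response (Scramble siRNA against siMEOX2) and the U87 response (MEOX2 overexpression against EV). This difference passed for 4 of 10 genes, against 24.4% of all genes, and in each the response was the higher in SNB19. Over all genes it was higher in SNB19 for 14.2% and lower for 10.2%. DKK3, DKK1, LEF1 and SFRP1 entered the test only through the line where they are high, so nothing is read from the count of 4. WNT5B was 0.59 higher in SNB19 with more MEOX2 and 2.19 lower in U87 on the log2 scale, a difference of 2.78 (SE 0.336, edgeR adjusted p = 0.00056). TCF7 differed by 1.64 (SE 0.315, edgeR adjusted p = 0.0059), being higher with more MEOX2 in SNB19 and without a called change in U87. DKK3 differed by 2.96 (SE 0.685, edgeR adjusted p = 0.014), a value that rests on 11 counts over the EV libraries and 3 over the overexpression libraries. WNT7B differed by 1.25 (SE 0.402, edgeR adjusted p = 0.0494). WNT5B and TCF7 passed in all 17 alternative fits, whereas DKK3 missed the threshold without overexpression replicate 1 (adjusted p = 0.073) and with the replicate block (0.068), and WNT7B passed in 7 of 17. For AXIN2 the responses pointed the same way and differed by 0.25 (95% interval -0.92 to 1.43, edgeR adjusted p = 0.77). The lines differ in delivery, in the size of the MEOX2 change and in selection as well, and these cannot be told apart.

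The wider pathway was followed through 9 lists by role, with 110 genes, of which 107 were in the table and 87 passed the filter. The lists were chosen with earlier results of these data known, so shares over them are a description. With MEOX2 knockdown 24 of the 87 were called, 18 lower and 6 higher (27.6%, against 15.7% of all genes), and the median log2 fold change was -0.24, beside -0.0013 over all genes. The beta-catenin target list had 8 of 17 genes called. Of these, 6 fell, AXIN2 and TCF7 among them, and 2 rose. CD44, a cell-surface hyaluronan receptor, fell from 28.9 ± 0.628 to 13.4 ± 0.474 FPKM (SD, n = 3 each; log2 fold change -1.19, edgeR adjusted p = 0.00030). CCND1, which encodes cyclin D1, fell from 24.5 ± 0.472 to 14.3 ± 1.17 FPKM (log2 fold change -0.87, edgeR adjusted p = 0.019). MYC, the growth-promoting transcription factor, went the other way, from 24.5 ± 1.15 to 65.7 ± 7.07 FPKM (log2 fold change 1.33, edgeR adjusted p = 0.00068). MYC was called higher with MEOX2 overexpression in U87 as well, from a mean of 65.6 to 217.6 FPKM (log2 fold change 1.55, edgeR adjusted p = 0.00047). TNFRSF19 (log2 fold change -1.52) and the low-count gene SP5 (-1.73) also fell, and SP8, another low-count gene, rose (2.03).

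Among the ligands, 3 of 12 tested genes were called with knockdown. WNT6 fell from 18.6 ± 1.31 to 5.66 ± 1.15 FPKM (log2 fold change -1.80, edgeR adjusted p = 0.0017), and WNT10A rose from 0.289 ± 0.0717 to 0.703 ± 0.00850 FPKM (log2 fold change 1.19, edgeR adjusted p = 0.0498). Of the receptors, 3 of 14 fell, and of the secreted or surface antagonists 3 of 10 fell. The whole count rose to 49, with 39 lower, when EV replicate 1 was left out, and to 49 when EV replicate 2 was left out, while the share of all genes called rose to 47.1% and 47.3%. No EV library is part of the knockdown comparison, so leaving 1 out bears mainly on the shared estimate of the spread. The log2 fold change of AXIN2, for example, was -1.48 with all libraries, -1.47 without EV replicate 1 and -1.47 without EV replicate 2. These fits therefore cannot check the direction of the knockdown changes. The count was between 9 and 13 when an SNB19 library was left out, when 6.71% to 8.79% of all genes were called.

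**Figure D4:**
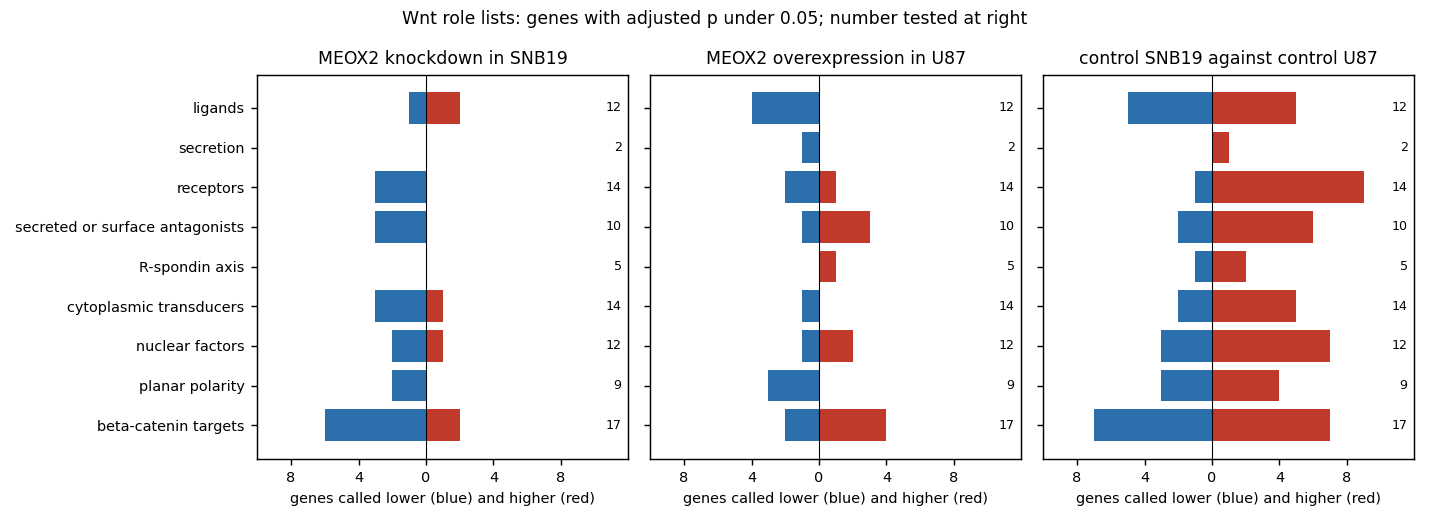
Number of genes of each Wnt role list that passed an adjusted p under 0.05, lower to the left of 0 and higher to the right (x axis), in the 3 comparisons, with the number tested printed at the right of each row. With knockdown the beta-catenin target list has 6 lower and 2 higher. Between the control cells the receptor list has 9 higher in SNB19 and 1 lower. ROR2, with 0 counts over the EV libraries, passed the filter only through SNB19, so the latter numbers are a description.

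With MEOX2 overexpression 24 of the 87 genes were called, 10 higher and 14 lower (27.6%, against 26.2% of all genes), a share near that of all genes. The median log2 fold change was -0.12 over the 77 genes with more than 3 counts in either group. BAMBI, a decoy receptor of TGF-beta signalling and a beta-catenin target, rose from 1.27 ± 0.0166 to 33.3 ± 1.06 FPKM (SD, n = 2 each; log2 fold change 4.46, edgeR adjusted p = 9.84e-06). RSPO3, which strengthens Wnt signals, rose from 0.760 ± 0.222 to 5.19 ± 0.11 FPKM (log2 fold change 2.56, edgeR adjusted p = 0.0027), and the antagonist SFRP2 rose from 0.720 ± 0.0708 to 2.95 ± 0.113 FPKM (log2 fold change 1.80, edgeR adjusted p = 0.012). SP5 fell from 1.76 ± 0.104 to 0.321 ± 0.0154 FPKM (log2 fold change -2.67, edgeR adjusted p = 0.00098). NOTUM, an enzyme that inactivates Wnt ligands, went from 74 to 11 counts over both libraries, CELSR2, a planar polarity cadherin, from 101 to 15 and TCF7L1, a TCF/LEF factor, from 18 to 4, and all were called lower. LRP5 had 1 count with EV and 22 with overexpression, a ratio of 20.8 (95% interval 3.37 to 860). TCF7L1 missed the threshold without EV replicate 1 (log2 fold change -1.45). BAMBI, LRP5, NOTUM, CELSR2, SP5, RSPO3 and SFRP2 kept their direction without EV replicate 1 and without EV replicate 2. The count was 44 without EV replicate 1 and 54 without EV replicate 2, when 38.9% and 59.5% of all genes were called. It was 12 without overexpression replicate 1 and 13 without overexpression replicate 2, when 8.47% and 9.12% of all genes were called. Some genes of the lists turned direction between the fits without EV replicate 1 and without EV replicate 2, WNT5A and FZD7 among them. How many of all genes turned was not counted, so this is a description.

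Several of the 87 genes, PRICKLE1, ROR2, WNT6 and RSPO3 among them, were listed at 0 in 1 of the control groups. Such genes entered the test only through the line where they are high, so the counts between the control cells are a description. Between the control cells, 63 of the 87 genes were called (72.4%, against 56.9% of all genes), 42 higher in SNB19 and 21 higher in U87. Of the 14 receptors, 9 were called higher in SNB19 and 1 higher in U87. Some genes of the lists, receptors among them, turned direction between the fits without EV replicate 1 and without EV replicate 2. How many of all genes turned was not counted, so this too is a description. The ligand WNT6 was at 18.6 ± 1.31 FPKM in SNB19 and listed at 0 in U87, at least 245-fold higher, and the WNT5A receptor ROR2 was at least 273-fold higher (6.03 ± 0.415 FPKM against 0). PRICKLE1, of the planar polarity branch, was at least 318-fold, WNT9A at least 47.4-fold and LGR6 at least 12.9-fold higher in SNB19. LRP5, the co-receptor of canonical signalling that DKK1 blocks, was at 20.1 ± 0.152 FPKM in SNB19 and had 1 count over the EV libraries. VANGL2 likewise had 1044 counts in SNB19 and 1 in U87. RSPO3 was listed at 0 in SNB19 and was at least 47.0-fold higher in U87.

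The 3 genes whose log2 level moved most like that of AXIN2 over the 10 libraries, of 17312 genes, were KCNN3, MYD88 and GPRC5B, at Euclidean distances of 0.468, 0.516 and 0.617 after centring. KCNN3, a calcium-activated potassium channel, had log2 fold changes of -1.60 with knockdown and 1.01 with overexpression. MYD88, an adaptor of Toll-like receptors, had -1.03 and 0.39, and GPRC5B, an orphan receptor, had -1.05 and 0.64. The genes were picked for this pattern, so these values are a description with no test.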

How the data were processed

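Poly-A RNA of 10 libraries was sequenced as read pairs. Per the submitters' processing notes, reads were handled with HISAT2, HTSeq 0.11.2 and DESeq2 1.26.0 on GRCh38, and the strand setting is not given in the sources used here. The authors deposited 1 table with a raw count and an FPKM value per gene and library. The deposited FPKM values equal the count divided by the library total and a fixed gene length, which for the 10 genes is the exonic length in GENCODE v29. Every value column was used (0 left out). Groups and replicate numbers follow the first part of each sample title. The treatment labels of EV replicate 2 and of both overexpression samples name MEOX3, MEOX4 and MEOX5 in place of MEOX2, and the bracketed part of the title of overexpression replicate 1 reads OE-2.

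Counts were tested with edgeR 4.0.16 (R 4.3.3): TMM scaling, filterByExpr with a minimum count of 10, and the quasi-likelihood test in 1 model of 4 groups over all 10 libraries, with 6 residual degrees of freedom. P-values were adjusted by Benjamini-Hochberg over 17312 genes, and an adjusted p under 0.05 was called. The test was checked on simulated counts with 200 changed genes. Intervals of count ratios are exact binomial intervals at 95%, cover counting error only and use sums over libraries, and a floor of 3 counts over a group sets bounds. Alternatives were DESeq2 1.42.0, library totals only, other filters (none, or a CPM of 1 in 2 samples), only the groups compared, a replicate block, leaving out each library, and the study's rule.

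Named were MEOX2, the 10 genes, at most 8 other called genes of the role lists in each comparison by absolute log2 fold change, and the 3 genes nearest to AXIN2. The 10 genes and the lists were chosen with earlier results of these data known. Marker lists held 10 glioma and astrocyte, 5 immune, 5 endothelial, 5 neuronal and 5 epithelial genes, of which the neuronal sum was 1.67 to 4.43 FPKM and the immune sum 0.517 to 4.09 FPKM over all libraries.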

Additional observations from a re-analysis of the deposited data

Results flagged for a closer look

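The difference between the responses of SNB19 and U87 to more MEOX2 passed the test for 4 of the 10 Wnt genes, which is what brought them here. On the log2 scale, SNB19 minus U87, it was 2.78 for WNT5B, 1.25 for WNT7B, 2.96 for DKK3 and 1.64 for TCF7 (edgeR's quasi-likelihood test across all genes, adjusted p of 0.00056, 0.0494, 0.014 and 0.0059). WNT5B and TCF7 passed in all 17 alternative fits, DKK3 in 15 of 17 and WNT7B in 7 of 17. WNT5B was lower in all 3 siMEOX2 libraries than in all 3 Scramble siRNA libraries and lower in both MEOX2 overexpression libraries than in both EV libraries, so its values lay lower with less MEOX2 in SNB19 and with more MEOX2 in U87. Its fall in SNB19 was not called (log2 fold change -0.59, edgeR adjusted p = 0.089). TCF7 was lower in all 3 siMEOX2 libraries, while its change in U87 was not called. WNT7B was called in U87 and had 10 to 19 counts in each SNB19 library, and DKK3 was called in SNB19 and had at most 6 counts in each U87 library. DKK3 entered the test only through SNB19, so nothing is read from the count of 4 genes. The lines differ in delivery, selection and the size of the MEOX2 change, and these cannot be told apart.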

How the results depend on the processing

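Each comparison was refitted under up to 19 alternatives. WNT5A, WNT5B, WNT7B, FZD7, AXIN2 and TCF7 remained different between the control lines in every one of them, and SFRP1, AXIN2 and TCF7 remained lower with knockdown in all of them, with DKK3 missing the threshold only with the replicate block (adjusted p = 0.058). Where 1 library of a group was left alone, it was assumed to vary like the other groups. For all role lists, the knockdown count of 24 (27.6%, against 15.7% of all genes) became 15 with library totals only (17.2% against 13.3%). It was 8 with the replicate block (9.20% against 5.61%). By the study's rule (unadjusted p under 0.05 and a log2 fold change over 1) it was 10 (11.5% against 10.6%). With only the groups compared it was 49 (61.25% against 55.9%), and 48 by DESeq2, chosen after seeing the data (60% against 50.8%). Leaving out an SNB19 library gave 9 to 13 (10.3% to 15.1%, against 6.71% to 8.79%). The overexpression count of 24 became 15 with the replicate block, 0 with only the groups compared and 12 to 54 when single libraries were left out. The overexpression count of 3 of the 10 genes (against 26.2% of all genes) became 5 by the study's rule (against 22.8%). It was 5 with the gene length trend removed, chosen after seeing the data (against 33.9%). It was 0 with only the groups compared and 2 to 7 when single libraries were left out. The share of all genes called moved as well when single libraries were left out, so that range is not specific to the Wnt genes. With only the U87 libraries, edgeR called 0 of 14180 genes (2643 at an unadjusted p under 0.05, 3 of the 10 Wnt genes and 14 of the role lists among them), and DESeq2 called 991, with 2 of the 10 Wnt genes and 9 of the role lists. The count of 4 genes whose responses differed (against 24.4% of all genes) became 2 with the replicate block (against 12.8%). It was 2 to 6 when single libraries were left out, and there too the share of all genes called moved.

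The labels share replicate numbers, but same-numbered SNB19 libraries did not deviate together (correlations of 0.0067, -0.018 and 0.070), so the replicate block is given only as an alternative. It lowered the calls over all genes from 2725 to 972 with knockdown and from 4538 to 2126 with overexpression. Same-numbered U87 libraries deviated against each other (-0.231), and the block with the U87 numbers crossed, chosen after seeing the data, called 3710 genes with overexpression. With knockdown this crossed block called 15 role list genes (17.2%, against 10.3% of all genes).

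Directions turned for values that were not called with all libraries. With library totals only, WNT7B moved to 0.014 with knockdown, WNT5A to 0.0094 with overexpression and AXIN2 to -0.029 in the difference of the responses, and DESeq2 gave -0.27 for DKK1 in that difference. When single libraries were left out, WNT7B ran from -0.44 to 0.19 with knockdown, WNT5A from -0.53 to 0.54 and FZD7 from -0.70 to 0.73 with overexpression. In the same way the difference of the responses ran from -0.18 to 0.89 for WNT5A, from -0.55 to 0.89 for FZD7, from -0.74 to 0.72 for AXIN2, from -2.11 to 0.99 for DKK1 and from -2.27 to 1.01 for SFRP1, the last 2 genes being at the floor in SNB19 or U87. The causes of these moves were not tested.

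Library totals only shifted the median log2 fold change of all genes to 0.08 with knockdown, 0.14 with overexpression, 0.37 between the control lines and -0.25 for the difference of the responses. The share of higher calls went from 44.4% to 57.0%, from 43.0% to 53.3%, from 49.4% to 64.5% and from 58.1% to 43.1%. Depth limits DKK1 and LEF1 in SNB19 and SFRP1 in U87, where a change with MEOX2 was not detectable at 3 counts or fewer in a group.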
